A study of Mus musculus with 4 samples.

Results

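The 9 genes described here, Meox1, Meox2, Tcf15, Pax1, Pax9, Uncx, Foxc2, Myf5 and Myog, encode transcription factors of the somites and of the first skeletal muscle. They were chosen by name and found by matching the Ensembl identifiers of the expression table to mouse symbols, which located 9 of 9 among 28765 genes. RNA-seq libraries came from CD-1 mouse embryos at embryonic day 9.5 (E9.5): NTD brain, control brain, NTD spine and control spine, with 1 library per group. NTD stands for neural tube defects, which were induced by methotrexate (MTX), a folate antagonist, injected into the mother at 1.5 mg/kg on E7.5 after both parents had eaten feed low in folate for over 8 weeks; the treatment label of the NTD libraries is folate deficiency (neural tube defects). The labels repeat the same protocol for the control libraries, so the feed and injection of the control mothers are unknown. The labels do not state the number of embryos per library or where brain and spine were cut.

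Somites are blocks of paraxial mesoderm that form in sequence on each side of the neural tube in the trunk. Each somite separates into a sclerotome, which gives vertebrae and ribs, and a dermomyotome and myotome, which give dermis and skeletal muscle; Shh from the notochord and floor plate favours sclerotome, and Wnt signals from the dorsal neural tube and surface ectoderm favour muscle. The head mesoderm in front of the somites is not segmented.

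The library totals behind the values lay between 16272101 and 16911677 reads. Levels are FPKM, reads scaled to exon length and library total, as the authors deposited them. Each FPKM was converted back to whole reads, and all 9 genes came out whole in all 4 libraries. Intervals are exact 95% intervals that cover counting error only; they compare 2 libraries, not 2 conditions, and no difference has a replicate check. Ratios across many genes are log2 ratios of (FPKM + 1), taken for the 12940 genes whose mean reached 1 FPKM (the filter), and "at least 2-fold" refers to that scale unless reads are named. All 9 genes passed that filter, whose mean is taken over all 4 libraries. Pax1, Uncx, Myf5 and Myog were under 1 FPKM in both brain libraries and passed it through their spine levels. Their part in counts of spine over brain is therefore not independent of the filter. The labelled regions were checked on 12 trunk Hox genes, position genes of the trunk: their FPKM summed to 12.5 in NTD brain, 0.288 in control brain, 195 in NTD spine and 188 in control spine, and 10 neural tube genes, all above the filter, summed to between 171 and 356 FPKM per library.

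All 9 genes were higher in the spine libraries than in the brain libraries, in NTD and in control embryos. Summed over the 9 genes, the level was 151 FPKM in NTD spine and 26.4 in NTD brain, and 129 in control spine and 15.4 in control brain. In NTD brain, 4 of the 9 genes (Meox1, Meox2, Tcf15 and Myog) stood above control brain with intervals that exclude equality. Among the 12721 compared genes with whole reads, 16.1% of such intervals lay above 1 and 25.7% below. Pax9, Uncx and Foxc2 had folds between 0.975 and 1.08 in brain. In NTD spine the 9 folds over control spine lay between 0.949 and 1.296.

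**Figure D1:**
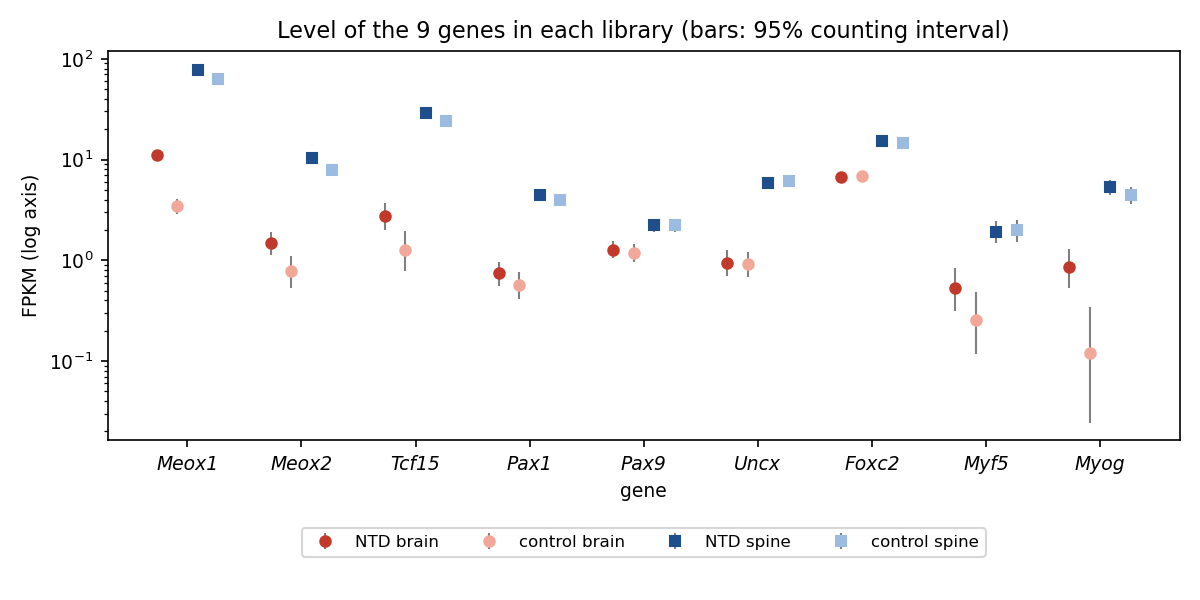
Level of each gene in FPKM (log axis) in the NTD brain, control brain, NTD spine and control spine libraries, 1 point per library with its 95% counting interval. Every spine point lies above both brain points of its gene, and the NTD and control points are farthest apart for Meox1 and Myog in brain.

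Meox1 and Meox2 encode homeodomain proteins of the whole early somite that act in part redundantly in forming the axial skeleton and trunk muscle. Meox1 (ENSMUSG00000001493, chromosome 11, 101877510 to 101894374, minus strand, GRCm38) stood at 11.1 FPKM in NTD brain (408 reads), 3.42 in control brain (129 reads), 77.3 in NTD spine (2861 reads) and 63.6 in control spine (2306 reads). It was the most abundant of the 9 genes in both spine libraries and in NTD brain, whereas Foxc2 was first in control brain. NTD brain was 3.25-fold above control brain (2.66 to 3.99), a log2 ratio of 1.45, and 15 protein-coding genes had a larger ratio. NTD spine was 1.22-fold above control spine (1.15 to 1.28).

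Meox2 (ENSMUSG00000036144, chromosome 12, 37108540 to 37179534, plus strand) followed the same order at a lower level. It had 1.49 FPKM in NTD brain (58 reads), 0.777 in control brain (31 reads), 10.3 in NTD spine (402 reads) and 7.92 in control spine (304 reads). The fold of NTD over control was 1.92 in brain (1.22 to 3.07) and 1.296 in spine (1.11 to 1.51), the largest of the 9 genes in spine. Per length, Meox1 exceeded Meox2 in every library, by 7.45-fold in NTD brain (5.65 to 9.99), 4.41-fold in control brain (2.96 to 6.75), 7.54-fold in NTD spine (6.79 to 8.39) and 8.04-fold in control spine (7.13 to 9.09). These intervals overlap between NTD brain and control brain, and the control brain interval ends below both spine intervals.

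The similarity of paralogs bears on whether reads of one could be counted for the other. In their coding sequences Meox1 and Meox2 have no 31-base word in common, and their longest shared run is 12 bases.

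Tcf15, also called paraxis, encodes a basic helix-loop-helix (bHLH) factor needed for somites to form an epithelium. The gene (ENSMUSG00000068079, chromosome 2, 152143561 to 152149097, plus strand) has the shortest exon length of the 9, 980 bases. It stood at 2.73 FPKM in NTD brain (44 reads), 1.27 in control brain (21 reads), 28.8 in NTD spine (469 reads) and 24.0 in control spine (382 reads). Tcf15 was second to Meox1 in both spine libraries, and its interval does not reach that of its neighbours in the order there. The fold of NTD over control was 2.15 in brain (1.25 to 3.81) and 1.20 in spine (1.05 to 1.38).

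Pax1 and Pax9 encode paired-box factors of the sclerotome that act together in vertebral development, and both are also used outside the somites, in the pouches of the pharyngeal endoderm. Pax1 (ENSMUSG00000037034, chromosome 2, 147361925 to 147393295, plus strand) had 0.743 FPKM in NTD brain (55 reads), 0.566 in control brain (43 reads), 4.45 in NTD spine (332 reads) and 3.95 in control spine (289 reads). Its fold of NTD over control was 1.31 in brain (0.865 to 2.005) and 1.13 in spine (0.959 to 1.32), and both intervals include 1. Pax9 (ENSMUSG00000001497, chromosome 12, 56691767 to 56712822, plus strand) had 1.27 FPKM in NTD brain (106 reads), 1.18 in control brain (101 reads), 2.23 in NTD spine (187 reads) and 2.24 in control spine (184 reads).

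For Pax9 the fold of NTD over control was 1.08 in brain (0.813 to 1.43) and 0.996 in spine (0.808 to 1.23). The order of the pair differed between the tissues: the ratio of Pax1 to Pax9 per length was 0.584 in NTD brain (0.414 to 0.816) and 0.479 in control brain (0.327 to 0.691), against 1.998 in NTD spine (1.67 to 2.40) and 1.77 in control spine (1.46 to 2.14). Pax1 thus lay below Pax9 in both brain libraries and above it in both spine libraries, with intervals on either side of 1. Genes on the other strand overlap 4.07% of the exon bases of Pax1 (AI646519) and 3.74% of those of Pax9 (Slc25a21), and the strand setting is unknown, which means that reads of the overlapping genes cannot be told apart in those stretches.

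Pax1 and Pax9 are the closest in sequence of the paralogs, and their windows are printed to show it, with a shared run of 26 bases in the paired box, still without a common 31-base word. The 120-base windows around it (coding bases 374 to 493 of Pax1-201 and 119 to 238 of Pax9-203) agree at 98 positions, with the shared run in capitals:
Pax1: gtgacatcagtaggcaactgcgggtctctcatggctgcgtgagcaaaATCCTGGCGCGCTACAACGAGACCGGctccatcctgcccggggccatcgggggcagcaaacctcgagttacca
Pax9: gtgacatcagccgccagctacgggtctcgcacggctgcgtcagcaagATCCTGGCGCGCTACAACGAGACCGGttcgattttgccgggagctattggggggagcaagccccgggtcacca

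Uncx encodes a paired-type homeodomain protein that marks the posterior compartment of each somite and is also made in parts of the nervous system and the kidney. Uncx (ENSMUSG00000029546, chromosome 5, 139543494 to 139548179, plus strand) had 0.949 FPKM in NTD brain and 0.924 in control brain, 49 reads in each, against 5.84 in NTD spine (304 reads) and 6.15 in control spine (314 reads). The fold of NTD over control was 1.03 in brain (0.677 to 1.56) and 0.949 in spine (0.808 to 1.11). Between tissues it was 6.66-fold higher (4.92 to 9.19) in control spine than in control brain.

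Foxc2 encodes a forkhead factor of paraxial mesoderm that is also made in head mesenchyme and in developing vessels. Foxc2 (ENSMUSG00000046714, chromosome 8, 121116171 to 121118895, plus strand) had 6.68 FPKM in NTD brain (300 reads), 6.86 in control brain (316 reads), 15.1 in NTD spine (685 reads) and 14.5 in control spine (645 reads). Its fold of NTD over control was 0.975 in brain (0.830 to 1.15) and 1.04 in spine (0.933 to 1.16). Of the 9 genes, Foxc2 and Pax9 had the highest levels in control brain relative to control spine, at 47.1% and 52.8%; the other 7 lay between 2.70% and 15.0%.

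Myf5 and Myog encode myogenic bHLH factors: Myf5 is the first of them to appear in the somite and commits cells to muscle, and Myog drives the differentiation of myoblasts. Myf5 (ENSMUSG00000000435, chromosome 10, 107482908 to 107486134, minus strand) had 0.525 FPKM in NTD brain (18 reads), 0.255 in control brain (9 reads), 1.91 in NTD spine (66 reads) and 1.98 in control spine (67 reads). With so few reads, its fold of 2.05 in brain has an interval of 0.876 to 5.19, and a difference was not detectable at this depth; in spine the fold was 0.965 (0.677 to 1.38). Myog (ENSMUSG00000026459, chromosome 1, 134289989 to 134292548, plus strand) had 0.853 FPKM in NTD brain (21 reads), 0.119 in control brain (3 reads), 5.32 in NTD spine (132 reads) and 4.40 in control spine (107 reads).

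For Myog the fold of NTD over control was 7.19 in brain, with a wide interval of 2.15 to 37.6, and 1.21 in spine (0.930 to 1.58). On the scale of FPKM + 1 the brain ratio was 0.73 (log2), because both levels are under 1 FPKM. Myog exceeded Myf5 per length by 2.79-fold in NTD spine (2.06 to 3.804) and 2.23-fold in control spine (1.63 to 3.07); the ratio was 1.63 in NTD brain (0.825 to 3.24) and 0.464 in control brain (0.0809 to 1.86), where neither interval excludes 1. Of the other myogenic factors of this family, Myod1 and Myf6 had 0 reads in both brain libraries; Myod1 had 5 reads in NTD spine and 7 in control spine, and Myf6 had 21 reads in NTD spine and 31 in control spine. A count of 0 allows up to 3 reads in that library.

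Myf5 and Myog also share no 31-base word, and their longest common run is 11 bases. Of the 120 bases around it (coding bases 172 to 291 of Myf5-201 and 166 to 285 of Myog-201), 72 agree, with the run in capitals:
Myf5: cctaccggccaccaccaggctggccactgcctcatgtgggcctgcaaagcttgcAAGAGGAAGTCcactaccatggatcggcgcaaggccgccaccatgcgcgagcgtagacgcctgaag
Myog: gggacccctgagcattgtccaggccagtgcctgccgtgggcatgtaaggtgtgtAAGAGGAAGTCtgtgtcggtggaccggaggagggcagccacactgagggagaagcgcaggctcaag

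RefSeq promoter windows (GRCm38.p6, 250 bases before to 50 after the annotated start) were found for 6 of the 9 genes: Meox2, Pax1, Pax9, Uncx, Myf5 and Myog. They were searched on both strands for an E-box, CANNTG, the type of site that bHLH factors bind; a MEF2-type word, CTANNNNTA; a homeodomain-type core, TAATTA; and a TATA-type word, TATAAA. Of all 32851 windows of that length, 72.3% hold an E-box, 21% the MEF2-type word, 5.29% the homeodomain-type core and 13.6% the TATA-type word. The windows of the myogenic pair and of Uncx are printed because Myog and Myf5 have the lowest control brain levels of the 9 genes and Uncx has a rare word in its window. Myog holds E-boxes from -138 and -12 and a MEF2-type word from -64, with positions counted from -1 just before the start and from 1 at the start; the capitals mark these words (chr1:134289754-134290053, plus strand). Myf5 holds no E-box in its window and a TATA-type word from 21, in capitals (chr10:107486085-107486384, minus strand); it also holds a pair of overlapping MEF2-type matches from -182 and -181. Uncx holds the homeodomain-type core from -133 and -30, in capitals (chr5:139543648-139543947, plus strand), and the first of them overlaps a MEF2-type match from -135.
Myog: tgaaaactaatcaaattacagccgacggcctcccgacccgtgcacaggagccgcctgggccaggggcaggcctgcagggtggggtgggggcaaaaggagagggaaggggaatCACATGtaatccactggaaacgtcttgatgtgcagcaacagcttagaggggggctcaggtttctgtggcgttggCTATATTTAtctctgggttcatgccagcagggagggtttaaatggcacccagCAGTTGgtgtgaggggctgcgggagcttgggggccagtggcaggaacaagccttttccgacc
Myf5: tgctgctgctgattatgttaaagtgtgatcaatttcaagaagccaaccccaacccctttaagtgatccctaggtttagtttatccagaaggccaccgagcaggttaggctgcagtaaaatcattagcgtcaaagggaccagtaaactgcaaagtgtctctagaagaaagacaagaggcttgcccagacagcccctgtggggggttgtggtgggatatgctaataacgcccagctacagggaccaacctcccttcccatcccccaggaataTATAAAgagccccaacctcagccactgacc
Uncx: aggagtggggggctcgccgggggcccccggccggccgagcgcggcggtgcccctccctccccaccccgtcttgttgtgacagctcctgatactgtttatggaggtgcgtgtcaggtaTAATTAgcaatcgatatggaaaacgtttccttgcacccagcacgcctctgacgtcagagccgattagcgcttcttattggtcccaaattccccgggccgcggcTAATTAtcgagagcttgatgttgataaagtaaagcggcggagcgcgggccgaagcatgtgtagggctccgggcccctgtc
The words found in Myog and Myf5 are not particular to them. Of the windows not printed, those of Meox2 (from -32) and Pax1 (from -242) also hold a MEF2-type word. E-boxes also occur in the windows of Meox2, Pax9 and Uncx, and a TATA-type word in that of Meox2 (from -29). These matches describe the letters of the windows and show no binding.

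Per length, the order in both spine libraries was Meox1, Tcf15, Foxc2, Meox2, Uncx, Myog, Pax1, Pax9 and Myf5, from high to low. Neighbours whose intervals overlap were Myog and Pax1, and Pax9 and Myf5, in both, and also Uncx and Myog in NTD spine. In NTD brain Meox1, Foxc2 and Tcf15 led, and from Meox2 down (Pax9, Uncx, Myog, Pax1, Myf5) the intervals of neighbours overlap. In control brain Foxc2 and Meox1 led, and from Tcf15 down (Pax9, Uncx, Meox2, Pax1, Myf5, Myog) they overlap.

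The first comparison asks how the 9 genes differ between tissues in control embryos. In control spine against control brain, 7 of the 9 genes were at least 2-fold higher on the scale of FPKM + 1, where 2.38% of all 12940 genes were. Of these 7, Pax1, Uncx, Myf5 and Myog passed the filter through their spine levels, so the count is not independent of it. Foxc2 (log2 ratio 0.98) and Pax9 (0.57) were the other 2 genes. The median log2 ratio of the 9 was 1.90, and that of all genes -0.01. By read folds, Myog was 37.1-fold higher (12.3 to 182.6) on 3 control brain reads, Tcf15 18.9-fold (12.2 to 30.9), Meox1 18.6-fold (15.6 to 22.4) and Meox2 10.2-fold (7.03 to 15.3). Myf5 was 7.74-fold (3.84 to 17.6), Pax1 6.99-fold (5.06 to 9.86), Foxc2 2.12-fold (1.85 to 2.43) and Pax9 1.89-fold (1.48 to 2.44) higher. All 9 intervals lie above 1 and 0 below, where 19.2% of the 12721 genes with whole reads lie above and 20% below. Trunk Hox genes were also higher in all 12 members, with a median of 3.83, and heart genes in all 10, with a median of 2.79. The 12 Hox genes summed to only 0.288 FPKM in control brain, and most passed the filter through their spine levels. Of the heart genes, Nkx2-5, Tbx5 and Nppa were under 1 FPKM in control brain. The counts of these lists are therefore not independent of the filter either.

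The count of genes past 2-fold depends on the pseudocount for levels this low: it was 3 (Meox1, Meox2 and Tcf15) with 5 in place of 1. In bulk tissue, fewer cells of a type and less RNA per cell cannot be told apart, here and in the results that follow.

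**Figure D2:**
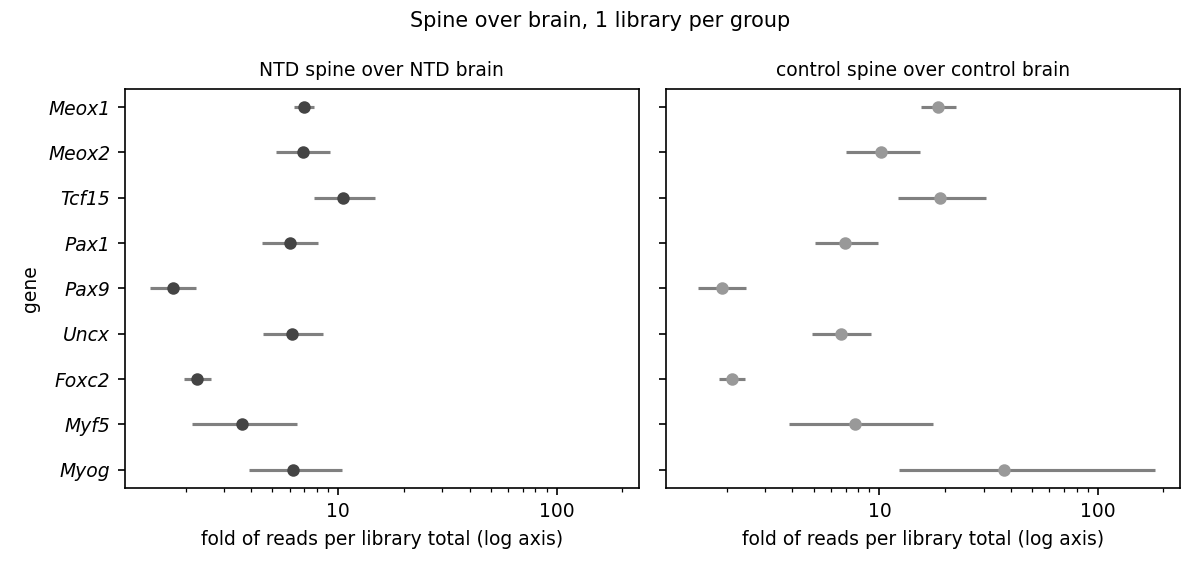
Fold of reads per library total for each gene on a log axis, NTD spine over NTD brain (left) and control spine over control brain (right), with 95% counting intervals. All intervals lie above 1; those of Meox1 do not overlap between the panels (6.27 to 7.73 and 15.6 to 22.4).

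In NTD embryos the gap between the tissues was of the same direction for all 9 genes. The fold of NTD spine over NTD brain was 6.96 for Meox1 (6.27 to 7.73), 6.88 for Meox2 (5.21 to 9.22), 10.6 for Tcf15 (7.75 to 14.7) and 6.23 for Myog (3.92 to 10.4). It was 5.99 for Pax1 (4.49 to 8.12), 6.15 for Uncx (4.54 to 8.50), 3.64 for Myf5 (2.13 to 6.51), 2.26 for Foxc2 (1.98 to 2.60) and 1.75 for Pax9 (1.37 to 2.24). The range over the genes was therefore narrower in NTD embryos, from 1.75 to 10.6, than in control embryos, from 1.89 to 37.1; the lower brain level behind the second range rests on 3 reads of Myog. On the scale of FPKM + 1, 7 of the 9 genes were at least 2-fold higher in NTD spine than in NTD brain and 0 lower, where 2.13% of all genes were higher and 1.02% lower. Of these 7, Pax1, Uncx and Myog passed the filter through their spine levels. All 9 intervals lie above 1, as do 22.3% of those of genes with whole reads.

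The second comparison asks how the genes differ in brain between NTD and control embryos. Meox1 was the 1 gene of the 9 at least 2-fold higher in NTD brain on the scale of FPKM + 1, where 0.804% of all genes were, and 0 of 9 were at least 2-fold lower, where 0.781% were. The median log2 ratio was 0.28, against -0.03 for all genes, and 8 of 9 ratios were above 0, as were 43.6% of all genes. Intervals lay above 1 for 4 of the 9 (Meox1, Meox2, Tcf15 and Myog) and below 1 for 0, while among all genes with whole reads 16.1% lay above and 25.7% below. Without a pseudocount, read folds of at least 2 were seen for Meox1, Tcf15, Myf5 and Myog, 4 of the 9, and for 2.11% of genes with whole reads.

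From high to low, the log2 ratios in brain were 1.45 for Meox1, 0.73 for Myog, 0.72 for Tcf15, 0.49 for Meox2, 0.28 for Myf5, 0.16 for Pax1, 0.06 for Pax9, 0.02 for Uncx and -0.03 for Foxc2. The order depends on the pseudocount: with 0.1 in place of 1 Myog led, at 2.12.

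**Figure D3:**
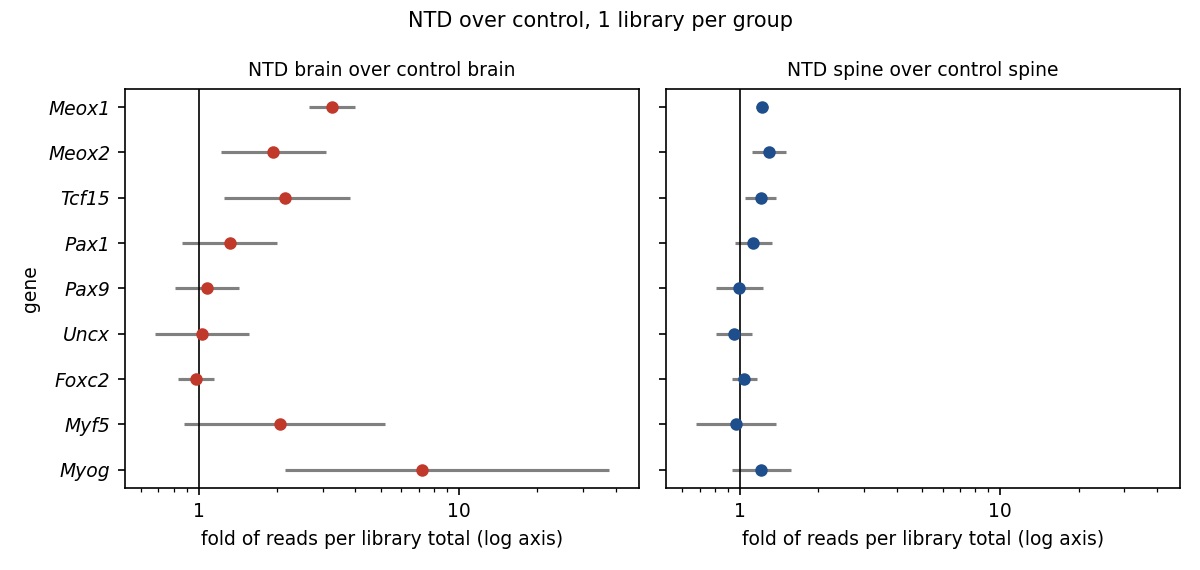
Fold of reads per library total for each gene on a log axis, NTD brain over control brain (left) and NTD spine over control spine (right), with 95% counting intervals and a line at 1. In brain the intervals of Meox1, Meox2, Tcf15 and Myog lie above 1; in spine those of Meox1, Meox2 and Tcf15 do, with folds of at most 1.296.

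Some marker lists of other trunk tissue also differed in brain, where the intervals of 4 of the 9 genes lay above 1 and those of 5 included 1. Heart genes were higher in NTD brain in all 10 members, 6 of them at least 2-fold, with summed levels of 114 FPKM in NTD brain and 28.8 in control brain, and Nppa had 0 reads in control brain. Trunk Hox genes were higher in all 12 members, 4 of them at least 2-fold (Hoxb7, Hoxb8, Hoxb9 and Hoxc6), with sums of 12.5 FPKM in NTD brain and 0.288 in control brain; Hoxb7, Hoxb8, Hoxc9, Hoxa7, Hoxd8 and Hoxd9 had 0 reads in control brain. All 10 neural tube genes were lower in NTD brain, with sums of 279 and 356 FPKM in NTD and control brain. Head mesenchyme genes were lower in 7 of 9, with sums of 70.5 FPKM in NTD brain and 83.3 in control brain, and none of their levels above the filter reached 2-fold in either direction. Genes of lateral plate, limb and intermediate mesoderm were higher in NTD brain in 8 of 9, with 5 intervals above 1, a median of 0.15 and sums of 19.6 FPKM in NTD brain and 17.3 in control brain. The medians of the other marker lists in brain were -0.13 for pharyngeal endoderm and arches, -0.01 for endothelium and 0.10 for primitive erythroid cells, with 0 genes of these 4 lists at least 2-fold different. The part of these tissues in the values of the 9 genes was not tested.

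The size of each difference can be set beside the level in control spine. The level in NTD brain minus that in control brain came to 16.7% of the control spine level for Myog, 13.6% for Myf5, 12.1% for Meox1, 9.04% for Meox2, 6.09% for Tcf15, 4.49% for Pax1 and 4.10% for Pax9. It was 0.402% for Uncx and -1.19% for Foxc2. The same share had a median of 5.60% over the 12 trunk Hox genes, where it ran from 2.82% to 8.60%, and of 19.0% over the 10 heart genes, from 7.60% to 21.9%. Taken as point values, Meox1, Meox2, Myf5 and Myog lie above the range of the trunk Hox genes. Uncx and Foxc2 lie below it. These shares carry no counting interval, so whether a gene lies outside that range was not tested. The Myf5 share comes from 18 and 9 brain reads (NTD, control), with a fold interval of 0.876 to 5.19. Meox2, from 58 and 31, exceeds the top Hox value only slightly, at 9.04% against 8.60%.

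**Figure D4:**
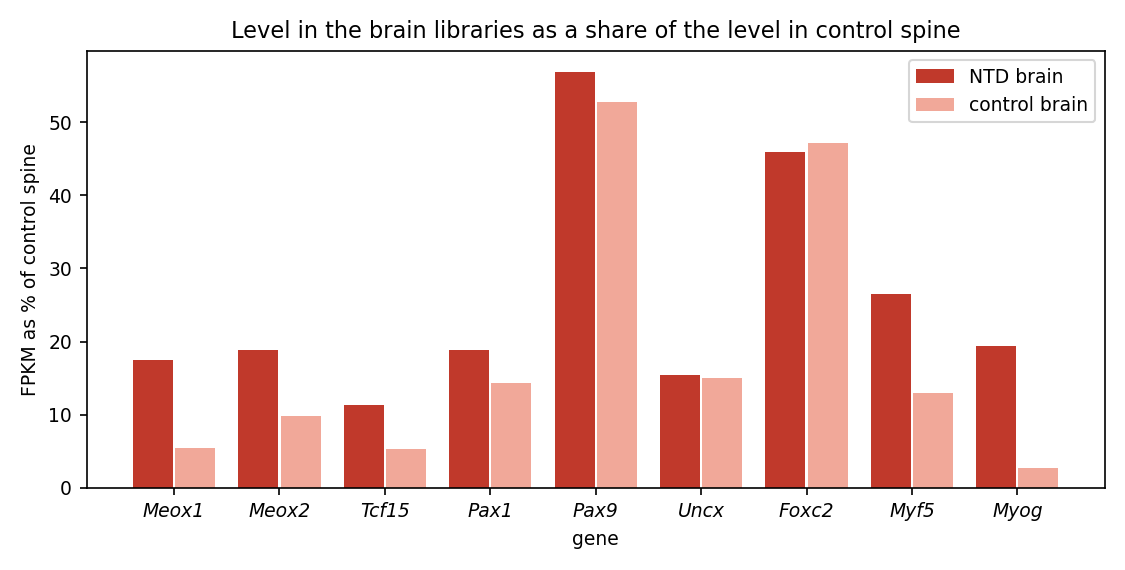
FPKM in NTD brain and in control brain as a percent of the FPKM in control spine, 1 pair of bars per gene. Pax9 and Foxc2 stand at 45.9% to 56.9% in both libraries, and Myog at 19.4% in NTD brain and 2.70% in control brain.

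The third comparison asks the same in spine. In NTD spine against control spine 0 of the 9 genes were at least 2-fold different, where 0.649% of all genes were higher and 0.68% lower. The median log2 ratio was 0.14, against -0.04 for all genes, and 6 of 9 ratios were above 0, as were 41.9% of all genes. A read fold of at least 2 was seen for 0 of the 9 and for 1.06% of genes with whole reads. Intervals lay above 1 for Meox1, Meox2 and Tcf15, at read folds of 1.20 to 1.296, and below 1 for 0 of 9; among all genes with whole reads 17.2% lay above and 26.6% below. The log2 ratios were 0.34 for Meox2, 0.28 for Meox1, 0.26 for Tcf15, 0.23 for Myog, 0.14 for Pax1, 0.05 for Foxc2, -0.004 for Pax9, -0.03 for Myf5 and -0.07 for Uncx. Of the 10 heart genes, 9 were lower in NTD spine, with sums of 277 FPKM in NTD spine and 419 in control spine, and primitive erythroid genes in all 6, with sums of 3308 and 6283 FPKM in NTD and control spine; all 10 neural tube genes were lower as well, with a median of -0.26, sums of 171 and 220 FPKM in NTD and control spine, and Tubb3 at least 2-fold lower. Their part in the values was not tested.

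Genes of the same pathways were taken from lists that share no member with the 9. In brain, the myogenic and embryonic muscle list had 9 of 15 members above the filter; all 9 were higher in NTD brain, and 4 were at least 2-fold higher: Actc1 (4.34-fold, 3.96 to 4.76), Myl4 (4.39-fold, 3.67 to 5.28), Tnnc1 (4.14-fold, 3.10 to 5.61) and Acta1 (3.27-fold, 2.36 to 4.604). Those genes encode contractile proteins that the embryonic heart also makes, and in spine the same 4 were lower in NTD, at folds of 0.564 to 0.687. Cdh15 encodes the cadherin of myoblasts and Myh3 an embryonic myosin of skeletal muscle. Of the 9 list members above the filter, 7 had intervals above 1 in brain, where 16.1% of genes with whole reads did. Besides the 4 named, these were Myl1 (2.875-fold, 1.36 to 6.63), Des (1.76-fold, 1.45 to 2.14) and Mef2c (1.33-fold, 1.16 to 1.53). The other 2, Cdh15 and Myh3, had the lowest log2 ratios of (FPKM + 1) in brain. Their read folds there were 1.54 (0.702 to 3.51) and 1.15 (0.647 to 2.06).

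The sclerotome list had 9 of 10 members above the filter, 0 of them at least 2-fold different in brain or spine, and medians of 0.03 and 0.05. Nkx3-2, a homeobox gene downstream of Pax1 and Pax9, had 0.671 and 0.447 FPKM in NTD and control brain (1.50-fold, 0.703 to 3.31). In spine Scx, a tendon precursor gene, was the lowest of the list, with 0.840 FPKM in NTD spine and 1.81 in control spine (0.465-fold, 0.286 to 0.741). Sox9 was the lowest in brain, at 0.747-fold (0.682 to 0.817), but it is also a gene of the neural tube and neural crest. The segmentation list (8 of 12 above the filter) had medians of -0.25 in brain and -0.07 in spine, and the dermomyotome list (11 of 13) -0.10 and -0.19. Among signals and receptors, 0 of 13 members reached 2-fold in either NTD comparison; Wnt11 (2.69-fold, 1.38 to 5.55) and Gli1 (1.24-fold, 1.13 to 1.36) were the highest in NTD brain, and Nog (0.532-fold, 0.393 to 0.716), a BMP antagonist, and Wnt3a (0.606-fold, 0.502 to 0.729) the lowest.

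**Figure D5:**
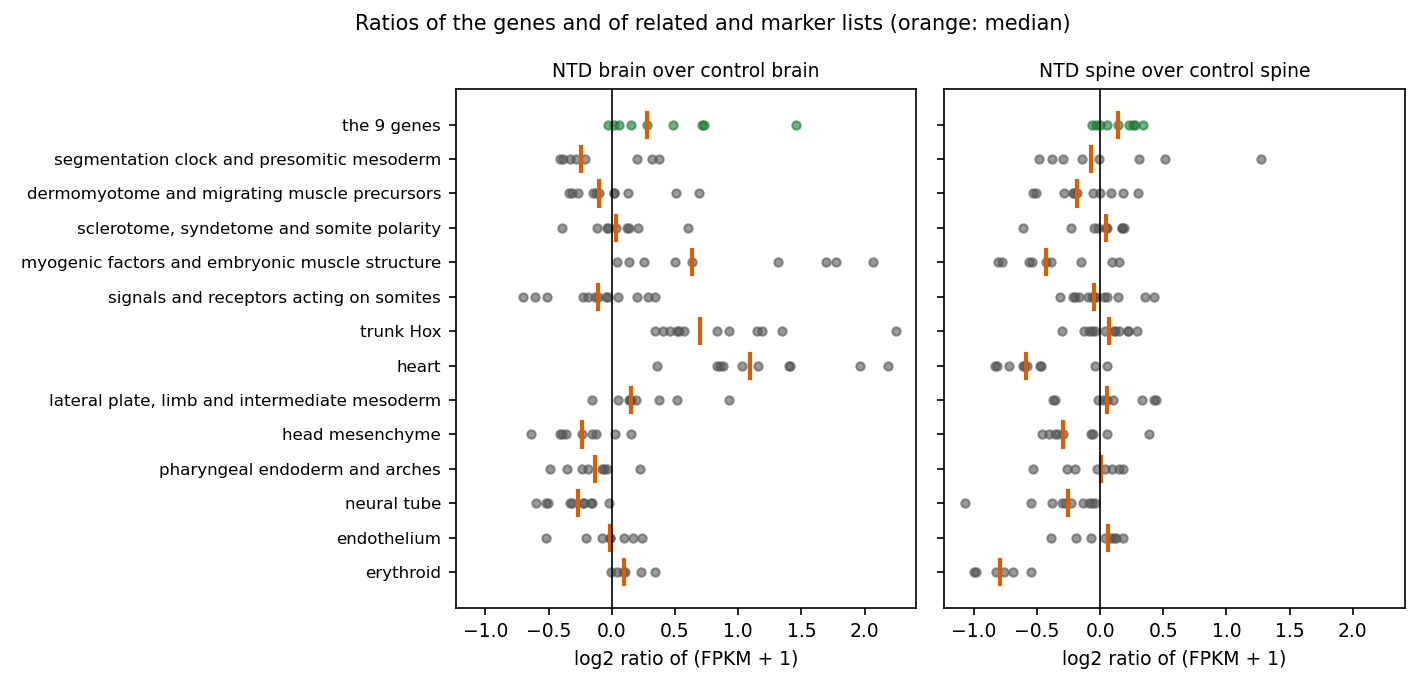
Log2 ratio of (FPKM + 1) for each gene above the filter, NTD brain over control brain (left) and NTD spine over control spine (right), for the 9 genes, 5 lists of related genes and 8 marker lists; orange lines are medians. In brain the heart, trunk Hox and muscle lists lie to the right with medians of 1.09, 0.70 and 0.64, and in spine the heart and muscle lists lie to the left with medians of -0.59 and -0.43.

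The genes with the most similar profile over the 4 libraries were found by the Euclidean distance between log2 (FPKM + 1) values centred on each gene's mean, among the 11199 protein-coding genes above the filter; with 4 libraries this is a description. The 3 nearest to Tcf15 were the trunk Hox genes Hoxa7, Hoxc8 and Hoxa9, at distances of 0.11 to 0.14. Hoxb3 and Hoxb5 were among the 3 nearest to Meox2 after Gata6, and Gm14226, Hoxa6 and Hoxc6 were nearest to Meox1, at larger distances of 0.22 to 0.42. Nkx3-2 was the nearest to Pax1 (0.09), with 0.671 FPKM in NTD brain, 0.447 in control brain, 3.82 in NTD spine and 3.65 in control spine.

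The 3 nearest to Foxc2 were Nid2, Bmp4 and Pde9a, those of Pax9 were Usp29, Tcf7 and Reck, and those of Uncx were Myrf, Hoxc11 and Bhlha9. Krt19, Tbx20 and Pdlim3 were nearest to Myf5, and Osr1, Gata6 and Tnc to Myog. At levels near 1 FPKM the centred profile is flattened by the pseudocount, so nearness there covers genes with quite different reads.

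GC content of the longest transcript ran from 41.6% in Myf5 to 65.8% in Tcf15. All genes in the GC decile of Tcf15 had a median log2 ratio of -0.15 in brain and -0.17 in spine, and those in the decile of Myf5 0.05 in both, so the ratio of Tcf15 lies further from its GC peers than from all genes. Uncx and Foxc2 share the decile of Tcf15.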

How the data were processed

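RNA-seq was measured in 4 libraries, and groups follow the sample titles. The authors deposited 1 table of FPKM; HISAT2 2.0.1 and the build mm10 are named in the submitters' processing notes. Counting program, annotation, strand setting and filters: not given in the sources used here. Identifiers were matched to GENCODE M21 (GRCm38, the same build) for symbol, position and union exon length; 28698 of 28765 matched. Within a library, FPKM times exon length is a whole multiple of a constant, from which library total and reads per gene were taken: 28298 genes (98.6% of those matched) were whole within 0.01 reads, and 219 of the 12940 compared genes were not and have no interval. Folds are ratios of reads per library total with exact (Clopper-Pearson) conditional binomial 95% intervals, and levels have exact Poisson intervals; a count of 0 is given a floor of 3 reads. Log2 ratios use a pseudocount of 1. With 1 library per group no test was run and no p-value is given. The steps were tested on simulated reads. The members, lists and naming rule (all 9 members; the 2 highest and 2 lowest of a list and those past 2-fold where they are 5 or fewer; the 3 nearest profiles) were chosen with earlier results of these data known. Not every gene the rule gives is reported here; Myod1, Myf6 and genes at 0 reads were named after their values were seen. Alternatives were pseudocounts of 0.1 and 5, no filter, a mean of at least 5 FPKM, 2 scalings, protein-coding genes only, thresholds of 1.5-fold and 4-fold, and, chosen after seeing the data, ratios centred on the GC decile. Python 3.11.15, numpy 2.4.6, pandas 2.3.3 and scipy 1.17.1 were used.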

Additional observations from a re-analysis of the deposited data

Results flagged for a closer look

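For 4 of the 9 genes the log2 ratio of NTD over control had opposite signs in brain and spine; the difference between the tissues was not tested, and each side is 1 pair of libraries. Myf5 stood at 0.28 in brain and -0.03 in spine, from 18 NTD brain reads and 9 control brain reads. Pax9 stood at 0.059 in brain and -0.004 in spine, Uncx at 0.018 in brain and -0.065 in spine, and Foxc2 at -0.032 in brain and 0.054 in spine. All 8 read folds behind these values have intervals that include 1. The sign in spine turned for Pax9 and Myf5 when libraries were scaled to the same FPKM sum (0.04 and 0.003), and for Pax9 under median-ratio scaling (0.02); with ratios centred on the GC decile Foxc2 in brain became 0.12 and Uncx in spine 0.11.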

How the results depend on the processing

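Each group has 1 library, so no library could be left out. All 4 libraries carry replicate number 1, and no pairing by embryo was used. A fit over the 4 libraries with tissue as a block, which would pair NTD with control within each tissue, was possible but was not run. In brain, the count of the 9 genes at least 2-fold higher in NTD was 1 as reported, 3 with a pseudocount of 0.1 and 3 at 1.5-fold (Meox1, Tcf15 and Myog in both), and 0 with a pseudocount of 5 and at 4-fold; the median log2 ratio ran from 0.07 with a pseudocount of 5 to 0.81 with 0.1. In control spine over control brain the count of 7 became 3 with a pseudocount of 5, 3 of the 4 genes left whose mean reached 5 FPKM, and 4 at 4-fold, and the median of 1.90 became 2.61 with a pseudocount of 0.1, 0.88 with 5 and 2.89 among the 4 genes left. In NTD spine the count stayed at 0 in each direction under all alternatives. For 201 recomputed single-gene ratios, the shift was set beside the distance from the middle to either end of the counting interval on the log2 scale. It was smaller for 185 and not smaller for 16, and 5 ratios changed sign, to values of 0.003 to 0.121. The 185 include ratios that could not move. A change of filter or the limit to protein-coding genes alters which genes are compared, not a gene's own ratio. Over all genes, the counts at least 2-fold higher and lower, 104 and 101 in NTD brain, were 230 and 214 with a pseudocount of 0.1, 27 and 11 with 5, and 35 and 9 among protein-coding genes; 84 and 88 in NTD spine were 134 and 246, 16 and 13, and 11 and 31; 308 and 127 in control spine over control brain were 484 and 228, 113 and 26, and (lower) 80 among protein-coding genes. Without a filter they were 164 and 171, 153 and 149, and (lower) 203; among genes whose mean reached 5 FPKM, 52 and 25, 19 and 34, and 108 and 31. At 1.5-fold they were 262 and 331, 188 and 379, and 682 and 376, and at 4-fold 17 and 9, 13 and 5, and 125 and 28. Depth limits Myf5 and Myog most, with 9 and 3 reads in control brain.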

Other observations

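Among related genes outside the 9, Dmrt2, a dermomyotome gene, had 0.935 FPKM in NTD brain and 0.202 in control brain, 4.62-fold higher (2.11 to 11.5), and 9.20 FPKM in NTD spine and 11.4 in control spine, a fold of 0.806 (0.699 to 0.929). It was the highest of the 11 dermomyotome genes above the filter in brain, and the lowest was Pax7 at 0.745-fold (0.642 to 0.863), which is also made in the neural tube.

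In spine, Msgn1, a presomitic mesoderm factor, was the 1 of 8 segmentation genes above the filter at least 2-fold different, at 9.43 FPKM in NTD spine and 3.31 in control spine (2.85-fold, 1.90 to 4.37). Tbx6, which also acts in presomitic mesoderm, had 6.91 and 4.53 FPKM in NTD and control spine (1.52-fold, 1.22 to 1.91). Nrarp and Lfng, a feedback regulator and a modifier of Notch signalling, had the lowest log2 ratios of (FPKM + 1) of that list, with read folds of 0.605 (0.438 to 0.829) and 0.756 (0.673 to 0.848).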
